A study of Rattus norvegicus with 6 samples.

Results

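Hair cells (HCs) hold unusually large amounts of small proteins that bind calcium in the cytosol, and 6 genes for such proteins were examined out of 32883 genes in the count table. They were taken by name: the parvalbumins Pvalb and Ocm (oncomodulin), the calbindin family members Calb1 (calbindin-D28k) and Calb2 (calretinin), and the S100 proteins S100a1 and S100b. Of these, 5 were listed under their own symbol, and Ocm was listed as Ocm2 (ENSRNOG00000001031), a symbol that RefSeq gives as a synonym of Ocm. The RNA came from the vestibular epithelium, the balance organ tissue of the inner ear, of Long-Evans rats. The STREP group was 3 animals given 500 mg/kg of the aminoglycoside antibiotic streptomycin under the skin every day for 6 weeks from postnatal day 21, and the Control group was 3 animals given PBS, with 2 males and 1 female in each group. Each library pooled the utricles and cristae of 1 animal, so it held HCs together with supporting cells, Schwann cells and the endings of vestibular neurons. A lower level in such tissue can come from fewer cells of a type or from less RNA per cell, and these cannot be told apart from these libraries alone. The study counted HCs in rats treated alongside these animals. It found no significant difference in any region, although mean counts were lower in the treated rats.

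In HCs, calcium enters through the mechanotransduction channels of the hair bundle and through voltage-gated channels at the ribbon synapse. EF-hand proteins, named after their calcium-binding loop, either bind the ions as mobile buffers (parvalbumins, calbindin, calretinin) or change shape on binding and act on a target (neuronal calcium sensors and most S100 proteins). In the vestibular epithelium, oncomodulin is best known from type I HCs of the striola and the centre of the cristae. The study notes, however, that cells of either HC type can express oncomodulin or lack it. Calretinin is known from type II HCs and from the calyx afferents of those central zones. S100b is best known from glia, and in the ear also from supporting cells.

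Pvalb and Ocm moved together, so the DNA before their start sites is shown, with that of S100b as a member that was not called. RefSeq promoters (build GRCr8) were at hand for these 3 of the 6 members, and not for Calb1, Calb2 and S100a1. The 250 bases upstream of each start are given 5′ to 3′ on the gene's strand, with each E-box (CANNTG, the motif of basic helix-loop-helix factors) in capitals. The windows lie at chr7:111666290-111666539 on the minus strand for Pvalb, chr12:15700376-15700625 on the plus strand for Ocm and chr20:12381082-12381331 on the minus strand for S100b.
Pvalb: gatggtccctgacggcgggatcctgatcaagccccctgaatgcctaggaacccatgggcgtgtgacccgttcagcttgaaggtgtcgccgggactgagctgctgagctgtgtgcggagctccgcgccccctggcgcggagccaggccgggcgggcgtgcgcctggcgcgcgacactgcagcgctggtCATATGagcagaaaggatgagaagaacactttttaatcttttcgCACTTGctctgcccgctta
Ocm: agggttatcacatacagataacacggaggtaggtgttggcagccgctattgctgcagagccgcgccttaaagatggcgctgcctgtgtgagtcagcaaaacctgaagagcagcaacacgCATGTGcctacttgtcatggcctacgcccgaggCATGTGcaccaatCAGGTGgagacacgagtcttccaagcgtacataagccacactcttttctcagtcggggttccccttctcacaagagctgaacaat
S100b: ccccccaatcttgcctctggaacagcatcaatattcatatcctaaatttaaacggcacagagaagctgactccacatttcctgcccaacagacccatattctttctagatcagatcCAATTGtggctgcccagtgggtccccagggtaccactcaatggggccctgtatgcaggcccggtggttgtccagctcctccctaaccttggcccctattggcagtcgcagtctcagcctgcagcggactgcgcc
The Ocm window held 3 E-boxes, the Pvalb window 2 and the S100b window 1, and 65.5% of 33469 promoters of this length held at least 1. The other motifs searched on both strands were CAGCTG, which is a form of the E-box and occurs in 12% of promoters, the TATA box TATAAA (12.9%), the CRE core TGACGT (6.95%) and the GC box GGGCGG (30.5%). The Pvalb window held 1 GGGCGG, and the remaining searches gave 0 matches in the 3 windows. GC content was 62.8% for Pvalb, 53.2% for Ocm and 54.8% for S100b. A motif match describes the letters of a window, not a binding site.

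Library totals ran from 29333584 to 59906048 counts, and depth separated the groups, averaging 52491222 ± 6425047 in the Control and 31631059 ± 2211388 in the STREP group (SD, n = 3). A level of 3 counts, taken as the detection floor, stood for 0.0501 to 0.102 CPM, that is, counts relative to the library's total, and covers counting error only. HC markers were well detected in every library: Otof, which encodes the otoferlin of the ribbon synapse, ran from 22945 to 29590 normalised counts (counts divided by the library's size factor). Among the 16250 genes tested with DESeq2, 223 (1.37%) were called lower and 304 (1.87%) were called higher in STREP animals, a call requiring an adjusted p-value under 0.05 and a fold change above 1.5. Of the 6 members, 2 were called lower, 0 higher and 4 were not called.

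The parvalbumin family fell as a pair. Pvalb (ENSRNOG00000006471) had 865, 743 and 955 normalised counts in the Control animals, given in replicate order throughout, against 316, 331 and 295 in the STREP animals. The highest STREP animal was far below the lowest Control animal. The means were 855 ± 107 and 314 ± 18.4 (SD, n = 3), a 2.72-fold lower level in STREP animals. The log2 fold change was -1.44 ± 0.20 (SE; DESeq2 adjusted p = 6.87e-11; 95% interval -1.83 to -1.06).

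Ocm encodes the mammalian beta-parvalbumin, whose expression is largely restricted to HCs. It had 1901, 1650.0 and 2013 normalised counts in the Control animals against 603, 759 and 693 in the STREP animals. Again the groups were widely separated, with the Control female highest. The means were 1855 ± 186 and 685 ± 78.2 (SD, n = 3), a 2.71-fold lower level. The log2 fold change was -1.44 ± 0.17 (SE; DESeq2 adjusted p = 2.30e-14; 95% interval -1.77 to -1.10). Ranked by p-value among all genes, Ocm was 19 and Pvalb 46. Ocm is also on the study's list of genes lowered in every ototoxicity model. Pvalb is on its longer list of genes lowered in rats both by streptomycin and by another ototoxic compound. Since these libraries helped to make both lists, a place there is not independent evidence.

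With every library thinned to the smallest total count, the log2 fold changes were -1.47 for Pvalb and -1.46 for Ocm. Both genes were called under each of the 16 alternative fits, which included edgeR (adjusted p = 0.00246 for Pvalb and 0.00119 for Ocm with low counts filtered).

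**Figure D1:**
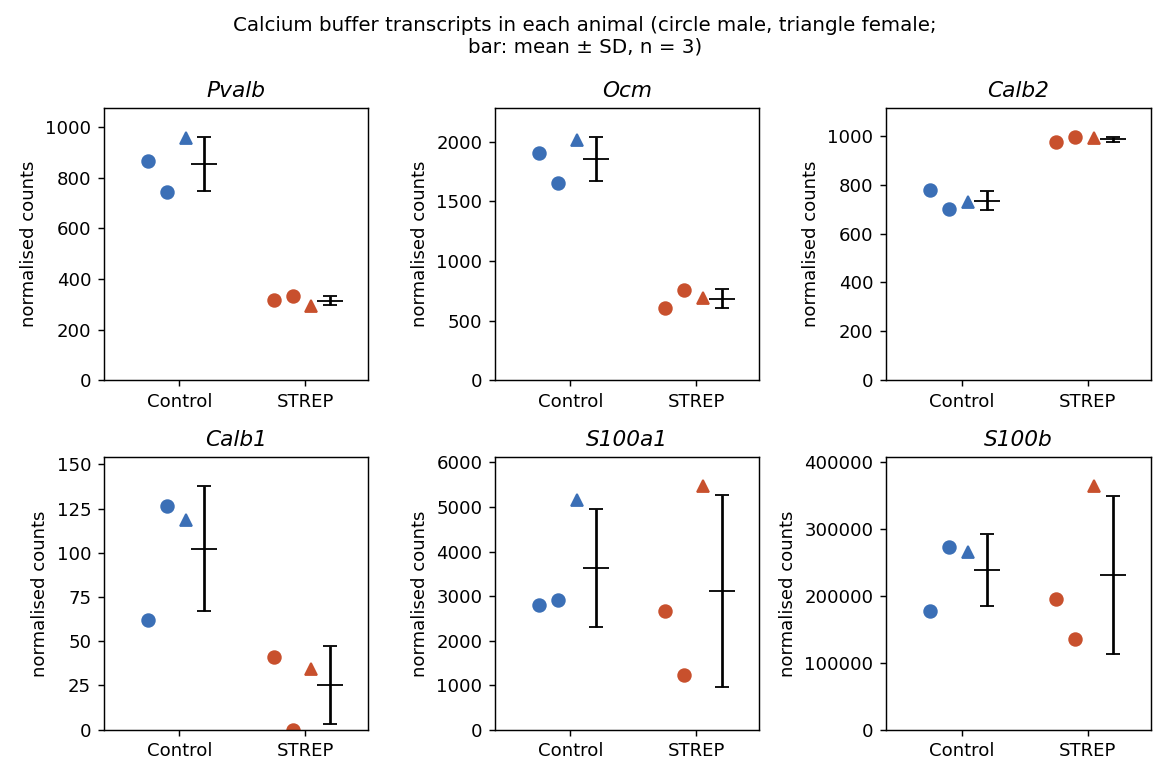
Normalised counts (y axis, starting at 0) of the 6 calcium buffer genes in each Control and STREP animal; circles are males, triangles females, and the bar gives the mean ± SD of 3 animals. Pvalb and Ocm are lower in all STREP animals (means 314 against 855, and 685 against 1855), Calb2 is slightly higher, Calb1 is low with 1 STREP animal at 0, and the S100 genes overlap.

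Calb2 went the other way without passing the test. Its normalised counts (ENSRNOG00000016977) were 778, 699 and 728 in the Control animals against 973, 993 and 989 in the STREP animals. On this scale all STREP values exceeded all Control values, and the STREP animals lay close together, with a coefficient of variation of 1.07%. In CPM the groups overlapped, with 21.1, 16.9 and 17.3 in the Control animals against 24.9, 28.9 and 19.6 in the STREP animals. With library totals as size factors, the log2 fold change was 0.41 (DESeq2 adjusted p = 0.823). The means were 735 ± 39.8 and 985 ± 10.5 (SD, n = 3). The log2 fold change was 0.42 ± 0.16 (SE; DESeq2 adjusted p = 0.130; 95% interval 0.12 to 0.73), below the 1.5-fold limit. Calb2 was not called under any alternative, and its log2 fold change stayed between 0.39 and 0.46 when any 1 animal was left out.

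Calb1 had the fewest counts of the members. It had 101, 149 and 138 counts in the Control animals, or 62.0, 127 and 119 when normalised (ENSRNOG00000007456). The STREP animals had 31, 0 and 23 counts, or 41.3, 0 and 34.4 when normalised. The 3 STREP values lay below the 3 Control values, the gap between Control replicate 1 and STREP replicate 1 being the smallest. In STREP replicate 2, the floor of 3 counts corresponded to 0.0943 CPM, against 1.69 to 3.07 CPM in Control animals. The means were 102 ± 35.3 and 25.2 ± 22.1 normalised counts (SD, n = 3), and the log2 fold change was -2.03 ± 0.88 (SE; DESeq2 adjusted p = 0.256; 95% interval -3.76 to -0.31). The estimate was large and imprecise, and without STREP replicate 2 it was -1.43 (DESeq2 adjusted p = 0.158).

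In normalised counts, 3 of 6 members (Calb1, Pvalb and Ocm) had all STREP values below all Control values, against 8.63% of all genes tested. For 1 of 6 (Calb2), all STREP values lay above, a pattern found in 9.12%. The separation of Calb2 was not kept in CPM. The median log2 fold change was -0.83 over the 6 members and 0.0069 over all genes tested. No member was near -0.83, which falls between Ocm (-1.44) and S100a1 (-0.22). The members were chosen with earlier results of these data known, so these comparisons are no test of the set.

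The S100 members showed no group difference beyond a wide spread between animals. S100a1, a calcium sensor best known from muscle and heart (ENSRNOG00000012410), had 2806, 2921 and 5165 normalised counts in the Control animals against 2655, 1218 and 5468 in the STREP animals. The female was highest in each group and STREP replicate 2 lowest of all. Its log2 fold change was -0.22 ± 0.65 (SE; adjusted p = 0.972 with DESeq2), and the 95% interval ran from -1.498 to 1.05, wide enough to include changes of over 1.5-fold either way.

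S100b (ENSRNOG00000001295) took up 0.394% to 0.721% of all counts in a library. It had 176951, 272604 and 265589 normalised counts in the Control animals against 194784, 135211 and 363799 in the STREP animals. The STREP animals held both the lowest and the highest value. The log2 fold change was -0.04 ± 0.29 (SE; DESeq2 adjusted p = 0.988; 95% interval -0.61 to 0.52). The sign of both S100 estimates turned when STREP replicate 2 was left out, to 0.16 for S100a1 and 0.23 for S100b. Other animals also turned it. S100a1 was 0.12 without Control replicate 3. S100b was 0.06 without Control replicate 2, 0.04 without Control replicate 3 and 0.07 without STREP replicate 1.

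For 4 members the difference had the same sign in both sexes, with a single female per group. For Pvalb, the log2 difference of STREP from Control was -1.31 in males and -1.69 in the female pair, and for Ocm it was -1.38 and -1.54. For Calb1, the values were -2.14 and -1.76, and for Calb2 they were 0.41 and 0.44. The S100 genes differed in sign between the sexes, S100a1 with -0.56 in males and 0.08 in females, and S100b with -0.45 and 0.45. The interaction of sex and group did not pass for any member (DESeq2 adjusted p = 0.666 for S100b, the lowest of the 6), while 34 of 13134 genes tested for it passed over the whole table.

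To set the members beside other HC transcripts of the same library, the mean log2 level of 8 HC genes (Myo7a, Pou4f3, Gfi1, Myo6, Otof, Espn, Cdh23 and Lhx3) was subtracted from each member's log2(normalised count + 1). The reference itself did not separate the groups, with log2 means of 12.21 ± 0.15 for Control and 12.23 ± 0.064 for STREP (SD, n = 3; p = 0.9 by an exact permutation test, two-sided throughout). Its 8 genes did not behave alike, however. Gfi1, an HC transcription factor, was called higher (log2 fold change 1.20), while 6 of the 8 had values below 0 (median -0.16). Myo7a, the stereociliary myosin, had -0.49 (DESeq2 adjusted p = 0.0162, below the fold limit). The study names Myo7a among the genes lowered in the streptomycin rats.

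Relative to the reference, Pvalb differed by -1.46 and Ocm by -1.46 on the log2 scale, with no overlap between groups. Calb2 differed by 0.40 and Calb1 by -3.14, also with no overlap, the latter resting on the STREP animal at 0 and being -1.39 without it. For each of these 4 members, the exact permutation p = 0.1 was the smallest that 3 against 3 animals allow, and the Benjamini-Hochberg adjusted p = 0.15 over the 6 members. S100a1 differed by -0.45 (exact permutation p = 0.7) and S100b by -0.17 (exact permutation p = 0.8), well within the spread. With Myo7a alone as the reference, the differences were -0.95 for Pvalb, -0.95 for Ocm and 0.91 for Calb2. Without Gfi1 in the reference, they were -1.29, -1.29 and 0.57.

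**Figure D2:**
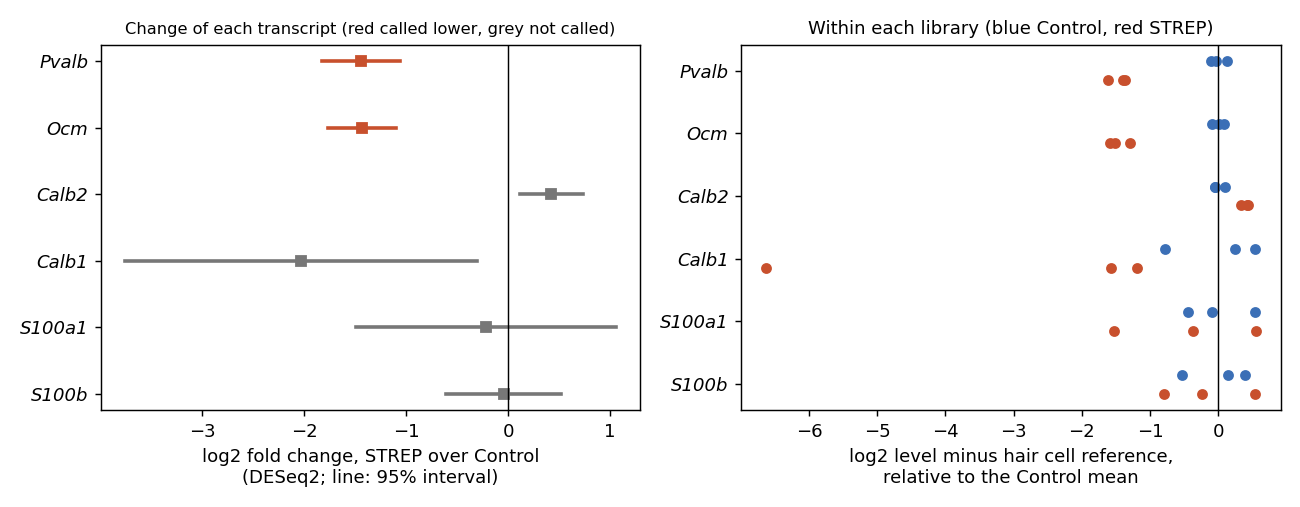
Left, log2 fold change of each member with its 95% interval (DESeq2, red called lower, grey not called); right, log2(normalised count + 1) minus the HC reference in each library, shifted so that the Control mean of each gene is 0. Pvalb and Ocm both lie at -1.44 on the left, and on the right their 3 STREP points stand clear of the Control points, by -1.46 on average for either gene; the isolated Calb1 point is the STREP animal with 0 counts.

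Ratios of members within a library do not depend on scaling between libraries. These ratios were chosen after the values had been seen and largely restate the fold changes of their genes, so their p-values are no separate support. Counts are not corrected for transcript length, so a ratio is compared between libraries only. The Ocm count was 2.20, 2.22 and 2.11 times the Pvalb count in the Control animals against 1.91, 2.29 and 2.35 times in the STREP animals. Both groups thus had a mean near the same value, 2.17 ± 0.060 and 2.18 ± 0.238 (SD, n = 3; exact permutation p = 1). A high p-value with so few animals does not show that the ratios are equal. In contrast, the ratio of Calb2 to Pvalb was 0.899, 0.941 and 0.762 in the Control animals against 3.08, 2.997 and 3.36 in the STREP animals. The means were 0.867 ± 0.093 and 3.15 ± 0.187 (SD, n = 3), a log2 difference of 1.86 with no overlap (p = 0.1 by the exact permutation test, its lower limit here). The ratio of S100a1 to S100b averaged 0.0153 ± 0.0044 in the Control and 0.0126 ± 0.0032 in the STREP group (SD, n = 3; exact permutation p = 0.4), with overlapping groups.

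**Figure D3:**
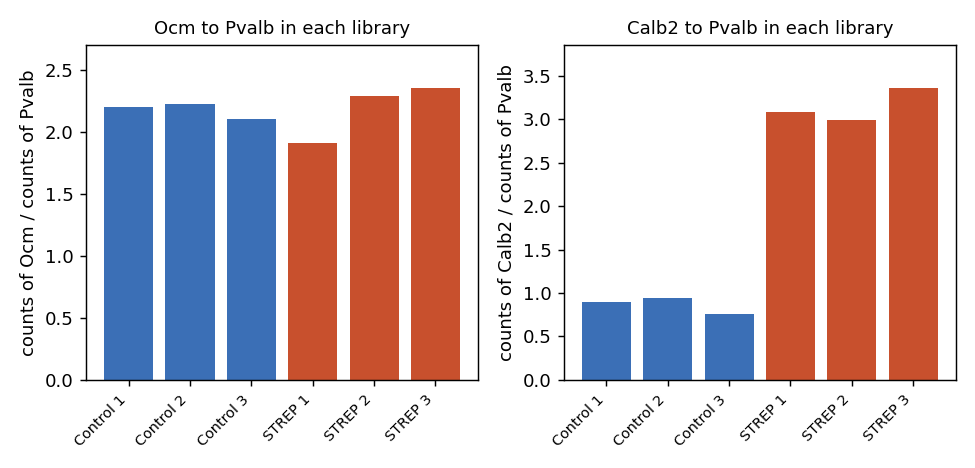
Ratio of counts within each of the 6 libraries (bars from 0, 1 bar per animal; blue Control, red STREP) for Ocm to Pvalb on the left and Calb2 to Pvalb on the right. Ocm to Pvalb stays between 1.91 and 2.35 in all animals, whereas Calb2 to Pvalb is below 1 in each Control animal and at least 2.997 in each STREP animal.

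The genes whose pattern over the 6 libraries was most like that of each member were found among 12130 genes with a mean of at least 100 normalised counts, by the root-mean-square difference of centred log2 values. Pvalb and Ocm were each other's closest gene, at 0.0964 log2 units against an own spread of 0.73 for either. The centred values keep the group difference, so this closeness largely restates their near-equal log2 fold changes of -1.44. Next for Pvalb came Rd3 (0.117), which encodes a protein that regulates guanylate cyclase in photoreceptors, and Dnah7 (0.132), an axonemal dynein heavy chain. For Ocm the next were AABR07066510.1 (0.109), a locus without a given name, and again Dnah7 (0.112). Calb2 was closest to the planar cell polarity gene Vangl2 (0.0442), with the zinc finger gene Zbtb11 (0.0557) also near.

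S100b ran closest to Apoe (0.0438), the lipid carrier apolipoprotein E, then to Skp1 (0.0600), a subunit of ubiquitin ligases, and Mt-atp6 (0.0657), a mitochondrial subunit of the ATP synthase. S100a1 lay near Mt-atp8 (0.196), another such subunit, Txn1 (0.228), a thioredoxin, and Best1 (0.258), an anion channel gene. Calb1, whose values are low and include a 0, had no gene as near, with Cntnap4 (0.748), Adamtsl2 (1.14) and Nckap1l (1.19) as its closest. Small distances are easier to reach for genes that vary little, as Calb2 did (own spread 0.217).

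The other genes of calcium binding and transport were taken as 4 lists. Of 87 rows in the table, 77 were tested, with 8 called lower, 2 called higher and a median log2 fold change of -0.14, beside 1.37% called lower, 1.87% called higher and a median of 0.0069 over all genes tested. Values were below 0 for 52 of the 77 and for 7969 of all 16250.

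Among the other cytosolic EF-hand proteins and sensors, 5 of 30 tested were called lower, 1 was called higher and 24 were not called (median -0.22), beside 223 lower and 304 higher of all 16250 genes. Cabp2, which tunes the inactivation of the Cav1.3 channel at the HC synapse, fell from 12604 ± 1125 to 6805 ± 1991 normalised counts (SD, n = 3; log2 fold change -0.89, DESeq2 adjusted p = 4.95e-04). Cib2, a partner of the mechanotransduction channel, fell from 2081 ± 213 to 1380.1 ± 132 (SD, n = 3; -0.59, DESeq2 adjusted p = 0.00737). These are both proteins that act on channels rather than bulk buffers.

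Calml4, a myosin light chain, fell by 0.62 on the log2 scale (DESeq2 adjusted p = 0.00369), Capsl, a calcyphosine-like gene, by 0.77 (8.57e-05), and Chp2, a cofactor of sodium-proton exchangers, by 0.84 (0.0184). The single increase was that of Necab1, a neuronal calcium-binding protein, from 842 ± 161 to 1284 ± 120 (SD, n = 3; log2 fold change 0.61, DESeq2 adjusted p = 0.0434). With the edgeR test and its low-count filter, the calls of Cabp2, Calml4, Cib2, Chp2 and Necab1 were lost, leaving Capsl. The Capsl call was lost with library totals as size factors (DESeq2 adjusted p = 0.0774). Calm2 had 2 rows in the table, of which ENSRNOG00000030871, with the highest counts of the list, had -0.45 (DESeq2 adjusted p = 0.524), and ENSRNOG00000016770 had -0.22. Neither was called, although the first was called lower in males alone (-0.82) and without STREP replicate 3 (-0.87). Scgn (secretagogin), Cabp5, Cib4 and Rcvrn (recoverin) had 0 counts in every library.

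The other S100 genes and the binding proteins of the endoplasmic reticulum gave 0 calls. Of the S100 family, 9 were tested with a median of -0.21, and those with the highest counts, S100a16 and S100a13, had log2 fold changes of -0.07 and -0.15. Of the endoplasmic reticulum proteins, 10 were tested with a median of 0.035. Those with the highest counts, the chaperones Canx (calnexin) and Calr (calreticulin), had 0.22 and 0.15.

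Among genes of calcium entry, stores and extrusion, 3 of 28 tested were called lower, 1 was called higher and 24 were not called (median -0.11), where 1.37% of all genes were called lower and 1.87% higher. Atp2a3, the SERCA3 pump that fills the endoplasmic reticulum, had 9477, 8958 and 10522 normalised counts in the Control animals against 4549, 3491 and 4127 in the STREP animals (log2 fold change -1.25, DESeq2 adjusted p = 2.15e-14). Atp2b2, the PMCA2 pump that clears calcium from the stereocilia, fell from 3965 ± 264 to 2076 ± 296 (SD, n = 3; -0.93, DESeq2 adjusted p = 3.21e-07). Cacna1d, the pore of Cav1.3, fell from 4491 ± 245 to 2579.9 ± 678 (SD, n = 3; -0.80, DESeq2 adjusted p = 0.00155). Its call was lost with library totals as size factors (DESeq2 adjusted p = 0.135).

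The 3 genes that fell thus act at the pore, at the plasma membrane and at the store. Stim2, a calcium sensor of the endoplasmic reticulum, rose from 1323 ± 237 to 2427 ± 206 (SD, n = 3; 0.88, DESeq2 adjusted p = 6.45e-05), and the gene of the list with the highest counts, the PMCA1 pump gene Atp2b1, had -0.10 and was not called. Capsl and Atp2b2 are, like Ocm, on the study's list of lowered genes, which these libraries helped to make.

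**Figure D4:**
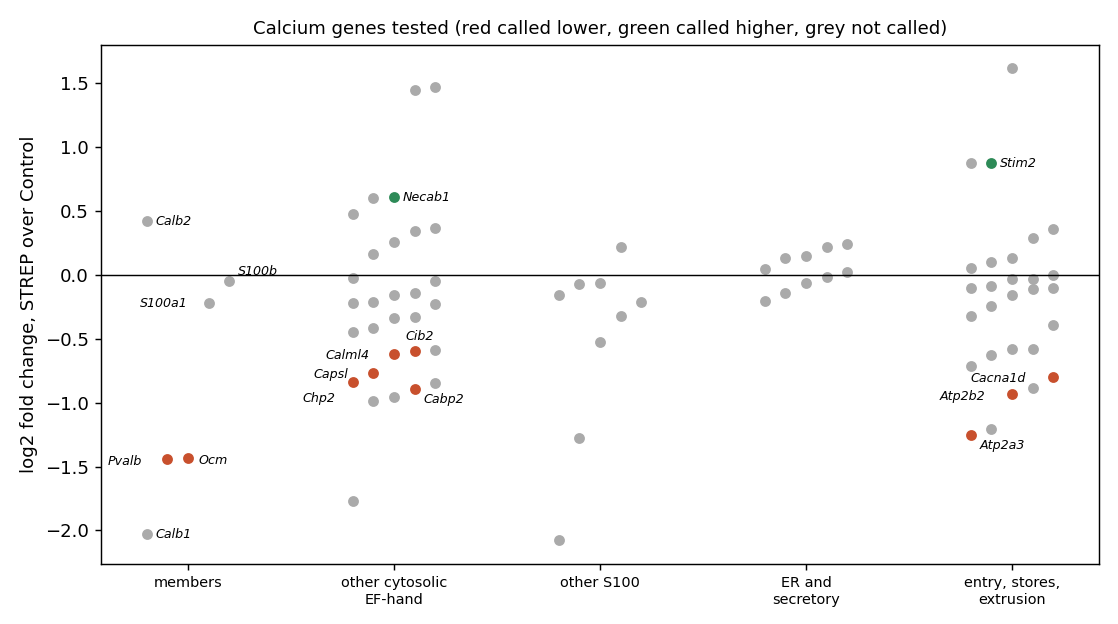
Log2 fold change, STREP over Control, of every tested gene among the members (6) and the 4 calcium lists (30, 9, 10 and 28 genes), 1 point per gene; the horizontal offset only separates points. The 8 genes called lower (red) and 2 called higher (green) outside the members belong to the EF-hand and the entry, stores and extrusion lists, and Pvalb and Ocm lie below all of them.

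Markers of other cells were summed in each library, since parvalbumin is also made by neurons and fast muscle, and S100b by glia. For the neuron list, 1 of 10 genes was called (Tubb3, higher, log2 fold change 1.28), and the sum of normalised counts ran from 4642 to 5176 in Control and from 4548 to 4886 in STREP animals. Nefl, its gene with the highest counts, had -0.29 and was not called. For skeletal muscle, 0 of 4 tested genes were called, and the sum was 467 to 1310 in Control and 723 to 1173 in STREP animals. Its counts came mostly from Tnnc2 and Myh4, while Tnni2 was at 0 in every library and Ckm, Acta1 and Tnnt3 had at most 8.50 normalised counts. Tnnc2 had 411, 309 and 811 normalised counts in the Control animals against 425, 602 and 624 in the STREP animals. Within the Control group it had the same order as Pvalb, but so did Ocm. Myh4 did not share that order (44.8, 137 and 481 in the Control animals), and within the STREP group Tnnc2 and Pvalb differed in order. The part of neurons and muscle in the Pvalb values was not tested.

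For Schwann cells and myelin, 1 of 10 genes was called lower (Prx) and 1 higher (Sox10), with a median log2 fold change of -0.37 and a sum of 270230 to 367362 in Control and 150269 to 302006 in STREP animals. Supporting cell genes had 0 of 8 calls and a sum of 483159 to 604833 against 561319 to 987822, Otog having the highest counts. In STREP replicate 2, where S100b and S100a1 were lowest, 7 of the 10 Schwann cell genes and 1 of the 8 supporting cell genes had their lowest value. In STREP replicate 3, where S100b and S100a1 were highest, 7 of the 8 supporting cell genes and 1 of the 10 Schwann cell genes had their highest value. Of 7 cartilage and bone genes, 2 were highest and 3 lowest in that library. How many of all genes were lowest or highest in these libraries was not counted, so these counts stand without a background. They also refer to normalised counts. In CPM, S100a1 was highest in Control replicate 3 (123, against 108 in STREP replicate 3). The part of these cells in the S100 values was not tested.

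The remaining marker lists had 0 calls. Their sums in Control and STREP animals were 86641 to 122630 and 87634 to 141637 for cartilage and bone, 27264 to 28268 and 27915 to 39978 for melanocytes, and 2371 to 2907 and 2540.3 to 3058 for brain. They were 110.1 to 129 and 53.9 to 84.2 for adipocytes, 11255 to 11776 and 11107 to 13942 for immune cells, and 9707 to 13261 and 7346 to 11607 for stroma. The melanocyte sum was mostly Pmel (log2 fold change 0.29), while the other 4 genes of that list had values below 0 and its median was -0.96. The adipocyte sum alone of these did not overlap between the groups. It was mostly Cidec, with means of 114 in Control and 54.5 in STREP animals (DESeq2 adjusted p = 0.178, not called). Adipoq, Fabp4 and Plin1 had group means of at most 6.10 normalised counts. HC genes themselves summed to 73209 to 78677 in Control and 65088 to 78391 in STREP animals.

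**Figure D5:**
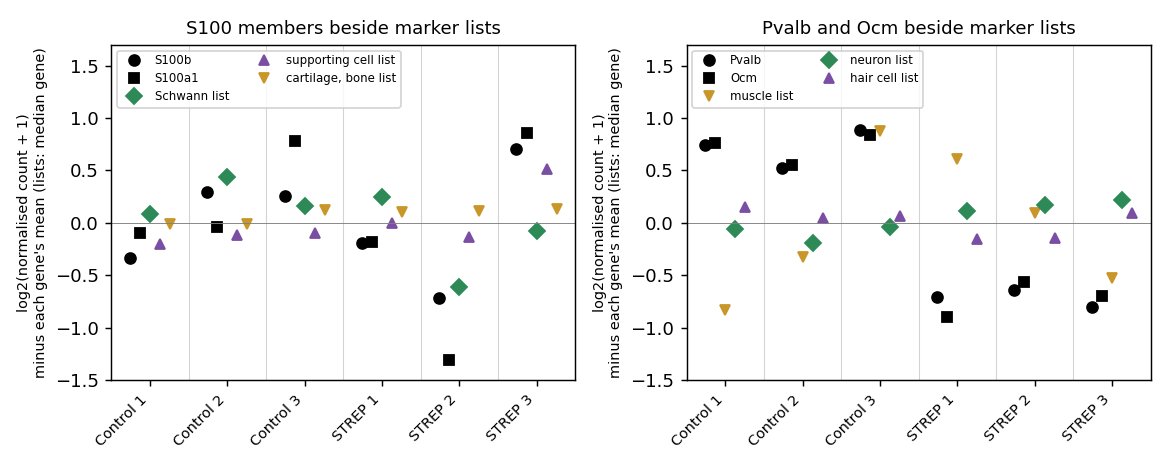
Log2(normalised count + 1) of each member minus its own mean over the 6 libraries (y axis) in each animal (x axis), beside the same for the median gene of whole marker lists. Left, S100b and S100a1 are lowest in STREP replicate 2 and highest in STREP replicate 3. The Schwann cell list is also lowest in STREP replicate 2 (-0.61), but highest in Control replicate 2 (0.44). The supporting cell list is also highest in STREP replicate 3 (0.51), but lowest in Control replicate 1 (-0.21). Right, Pvalb and Ocm are lower in all STREP animals, and the muscle and HC lists overlap between groups. The neuron list is slightly higher in STREP (0.11 to 0.22 against -0.19 to -0.04).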

How the data were processed

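Libraries were made by the authors with an oligo-dT SMARTseq2 protocol from the vestibular epithelia of 6 rats, aligned with STAR 2.5.3a and quantified with RSEM 1.3.0, as the submitters' processing notes name them, on Rnor6.0. The authors deposited 1 table of expected counts (estimated reads per gene, unscaled); 0 values were not whole, so rounding changed nothing. Expected counts share reads among similar genes, so genes with near-identical copies, such as Calm2, are uncertain. Groups came from the labels. Replicates were numbered in deposition order and pair no animals, and the labels give all libraries the same batch. The titles of STREP replicate 1 and STREP replicate 2 share an identifier number that no other title has. What that number stands for is not given.

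All 32883 genes entered DESeq2 1.42.0 (R 4.3.3; Wald test, group only, median-of-ratios size factors, Benjamini-Hochberg adjustment, independent filtering at 0.05). The edgeR 4.0.16 quasi-likelihood test was an alternative, and both were tested on simulated data. Alternatives also covered other scaling, filters, sex, males alone, thresholds, thinning and leaving out each animal; the reference without Gfi1 and the member ratios were chosen once values were known. The members and lists were chosen with earlier results of these data known. Named genes were the members, every called gene and the 2 genes with the highest counts of each calcium list, the 3 genes most like each member, and leading markers; some other marker genes were named after their values were seen, and some genes that the rule names are not reported here. Promoters were from RefSeq (GRCr8), whose coordinates are not those of the count table's build. Intervals are at 95%. Transcript lengths were not used here, so levels were not compared between genes.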

Additional observations from a re-analysis of the deposited data

How the results depend on the processing

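Pvalb and Ocm were called lower in all 16 alternative fits, and leaving out any 1 animal gave log2 fold changes of -1.54 to -1.36 for Pvalb and -1.52 to -1.35 for Ocm. Calb1 and Calb2 were called in none of those fits. Leaving out 1 animal gave -0.91 to 0.16 for S100a1 and -0.53 to 0.23 for S100b. Relative to the HC reference it gave -0.95 to 0.094 for S100a1 and -0.52 to 0.15 for S100b. With Myo7a alone as the reference these were 0.069 and 0.35, and without Gfi1 in the reference S100b was 0.0062; in males alone Pvalb was -1.32. Among the other calcium genes, the 8 called lower became 4 with edgeR and its filter, 5 with edgeR without a filter, 4 with library totals as size factors and 1 (Atp2a3) with the fold threshold inside the Wald test. The 2 called higher became 1, 1, 1 and 0 under the same settings, 1 in thinned libraries, and 1 to 2 when 1 animal was left out. Over all genes, edgeR with its filter called 126 lower and 138 higher against 223 and 304. The cause of these differences was not tested. Atp2b1 was 0.0024 in males alone, and leaving out 1 animal gave -0.23 to 0.0030 for S100a16 and -0.47 to 0.014 for S100a13. Scaling moved the median log2 fold change of genes above a minimum mean count by under 0.1 log2 units. The main scaling keeps that median small by design, so it does not show that calls are stable. No paired analysis was possible because the labels carry no replicate numbers shared by the groups. Summing Ocm and Ocm2 was not run, since the table lists only Ocm2. Depth limits Calb1 most, with 0 to 149 counts per library.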
